A study of Mus musculus with 14 samples.

Results

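Mouse melanoma tumours taken 7 days after an intratumoral injection of 2E'/PTX/siNeg (n = 4) were set against untreated tumours taken at day 0 (n = 3), which is 7 of the 14 libraries of the series. The libraries were assigned by their labels, and the comparison covers all 17141 of 37409 genes that passed a filter on low counts. Per the labels' protocols, B16F10 cells had been placed under the skin of C57BL/6 mice, and injections were given once the tumours measured about 150 mm3. PTX is read as paclitaxel and siNeg as a negative-control siRNA, and 2E' is taken as the polymer that carries both. A further group, D5W (read as dextrose in water, n = 3), was injected in the same way and also taken at day 7, and stands beside the siNeg group throughout. A group labelled 2E'/PTX siPD-L1 (siPDL1, n = 4), also taken at day 7, entered the model fitted to all 14 libraries but is not compared here. Below, both day 7 groups means siNeg and D5W. The siNeg and day 0 groups differ in time, injection and agents at once. The polymer, paclitaxel and the siRNA came together, so their parts cannot be told apart. The labels do not state that each library is a separate mouse, so each p-value reflects only how far these libraries vary.

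Paclitaxel binds β-tubulin and stabilises microtubules, which holds dividing cells in mitosis. Carriers of nucleic acids can reach Toll-like receptors in endosomes and RNA sensors in the cytosol, which signal through NF-kB and interferon regulatory factors. Type I interferon then acts on its receptor and, through transcription factors in the nucleus, switches on a set of antiviral genes that share a promoter element. A separate early layer of transcription, the immediate early genes (Fos, Jun, Egr, Nr4a and Klf families), answers growth factors, stress, cAMP and tissue handling without new protein synthesis.

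The RNA was of the pigment cell lineage. Across the 14 libraries the median level was 7915 CPM (counts scaled to library size with TMM factors) for Dct and 5068 CPM for Tyrp1, both enzymes of melanin synthesis. The labels give CT26, a colon carcinoma line, as the cell type and name B16F10, a melanoma line, in the treatment protocol. The intestinal markers Epcam, Cdx1, Cdx2 and Krt20 did not pass the filter, and Vil1 had a median of 3.84 CPM. Each library held between 60166278 (day 0) and 85941309 (D5W) counts, with 68489601 to 80211225 in the siNeg group, so counting error is small for all but the weakest genes. Mitochondrial genes took 3.227% to 15.24% of the counts at day 0, where replicate 2 was highest, and 3.467% to 7.5% in siNeg. On the first principal component, with 31.2% of the variance, the day 0 libraries lay between -50.3 and -38.3, the siNeg libraries between -4.05 and 17.5, and D5W replicate 3 stood apart at 62.6.

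In siNeg tumours 3158 genes differed from day 0 at an adjusted p under 0.05, which is 18.4% of those tested. Here and below, a gene that rose, fell or passed did so in this edgeR test, unless another tool is named. Of these, 1802 (10.5%) were higher and 1356 (7.91%) were lower. Changes of at least 2-fold were found for 428 genes (2.5%) that rose and 133 genes (0.776%) that fell. Scaling by library totals alone gave 1774 genes, 71.1% of them higher against 57.1% here. The count was 1281 without day 0 replicate 1, 1753 without day 0 replicate 2, 1987 without day 0 replicate 3, 2071 without siNeg replicate 3 and 1968 without siNeg replicate 4.

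**Figure D1:**
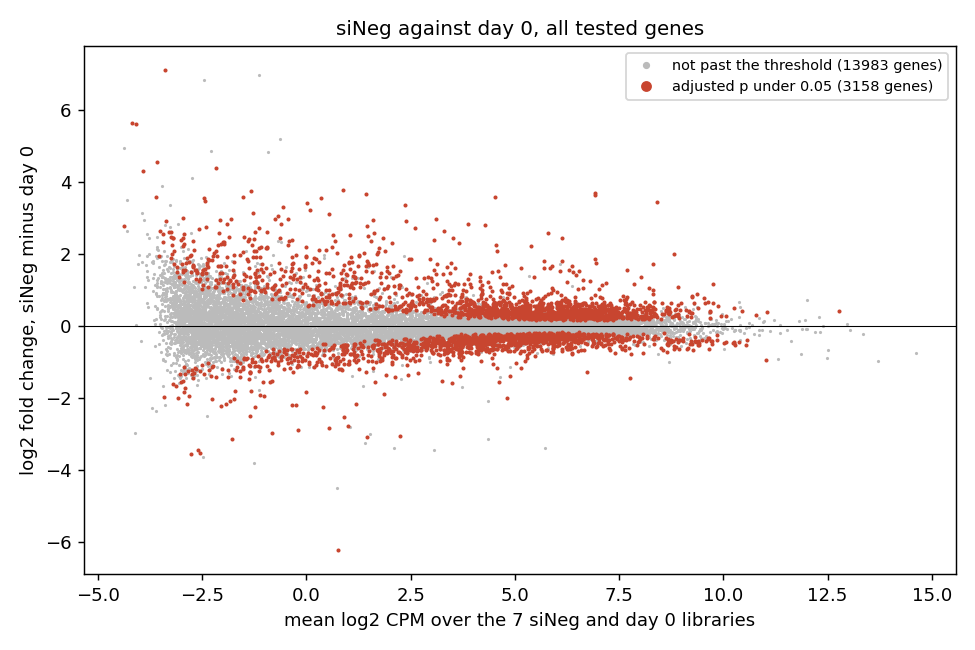
Log2 fold change of siNeg over day 0 (y axis) against the mean log2 CPM over the 7 libraries (x axis) for each of the 17141 tested genes, with the 3158 genes past the threshold in red. Most red points lie within 1 log2 unit of 0.

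D5W tumours differed from the same day 0 libraries in 3691 genes (21.5%), 2030 of them higher (11.8%) and 1661 lower (9.69%). Of the 1802 genes that rose in siNeg, 1232 also rose in D5W, which is 68.4% of the siNeg and 60.7% of the D5W calls. Of the 1356 that fell, 790 also fell in D5W, 58.3% and 47.6% of the respective calls. Both comparisons use the same 3 day 0 libraries, so a chance deviation at day 0 enters both and these shares are not independent evidence. Without D5W replicate 3, D5W differed from day 0 in 2036 genes, and 1522 of the 3158 siNeg calls were shared in direction in place of 2022 (64%). With each pair of groups fitted alone, 1925 of 5953 siNeg calls were shared, 32.3%. Set directly against D5W, siNeg differed in 18 genes (0.105%), 4 higher (0.0233%) and 14 lower (0.0817%). In 914 genes (5.33%) all 4 siNeg libraries lay outside the range of the 6 day 0 and D5W libraries, 2.74% above and 2.6% below. At an unadjusted p under 0.05 the direct contrast held 2562 genes (14.9%), and DESeq2 called 459 and limma voom 310.

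The rise in immediate early genes was common to both day 7 groups. Of 32 tested members of this list, 27 rose and 1 fell in siNeg with a median log2 fold change of 1.53, and 25 rose and 1 fell in D5W with a median of 1.45. The median over all tested genes was 0.01 in siNeg and 0.00 in D5W. Beside the counts of this and every later list stand the shares of all genes called against day 0. These were 10.5% higher and 7.91% lower in siNeg, and 11.8% higher and 9.69% lower in D5W. Klf4, a zinc-finger transcription factor (chromosome 4, 55527143 to 55532466, GRCm38), had 26.4, 28.2 and 29 CPM at day 0. It had 331, 322, 385 and 418 CPM in siNeg and 401, 463 and 634 CPM in D5W. All 7 siNeg and D5W libraries stood above 300 CPM and all day 0 libraries below 30, a log2 fold change of 3.71 ± 0.23 (SE) in siNeg (adjusted p = 4.9e-07) and 4.16 ± 0.24 in D5W.

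Sik1, a cAMP-induced kinase, rose from 28.7 ± 2.76 CPM (SD, n = 3) to 358 ± 48 CPM (SD, n = 4), a log2 fold change of 3.64 ± 0.28 in siNeg (adjusted p = 3.52e-06) and 4.09 ± 0.29 in D5W. Fosb, a partner of Jun in the AP-1 factor, rose from 86.7 ± 14.8 to 949 ± 98.5 CPM, by 3.45 in siNeg and 3.35 in D5W on the log2 scale. Nr4a2, an orphan nuclear receptor, had 45.2, 59.8, 63.9 and 104 CPM in siNeg and 107, 135 and 215 CPM in D5W after 5.31, 6.04 and 5.76 CPM at day 0. Its siNeg libraries all lay below its D5W libraries, but the direct difference of -1.16 ± 0.33 did not pass (adjusted p = 0.167). The other genes named by size or p that rose in both were Osr2, a zinc-finger developmental regulator, Coq10b, a coenzyme Q-binding protein, Btg1, an antiproliferative protein, Ccnl1, a cyclin tied to splicing, and Arrdc3, an arrestin-like protein. Their log2 fold changes were 3.35, 2.26, 1.54, 1.27 and 1.74 in siNeg and 3.49, 2.31, 1.44, 1.03 and 1.77 in D5W. Groups did not overlap for any of these 5 genes, in either comparison. Over all tested genes, 41.7% did not overlap between siNeg and day 0, 43.8% between D5W and day 0 and 14.3% between siNeg and D5W.

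**Figure D2:**
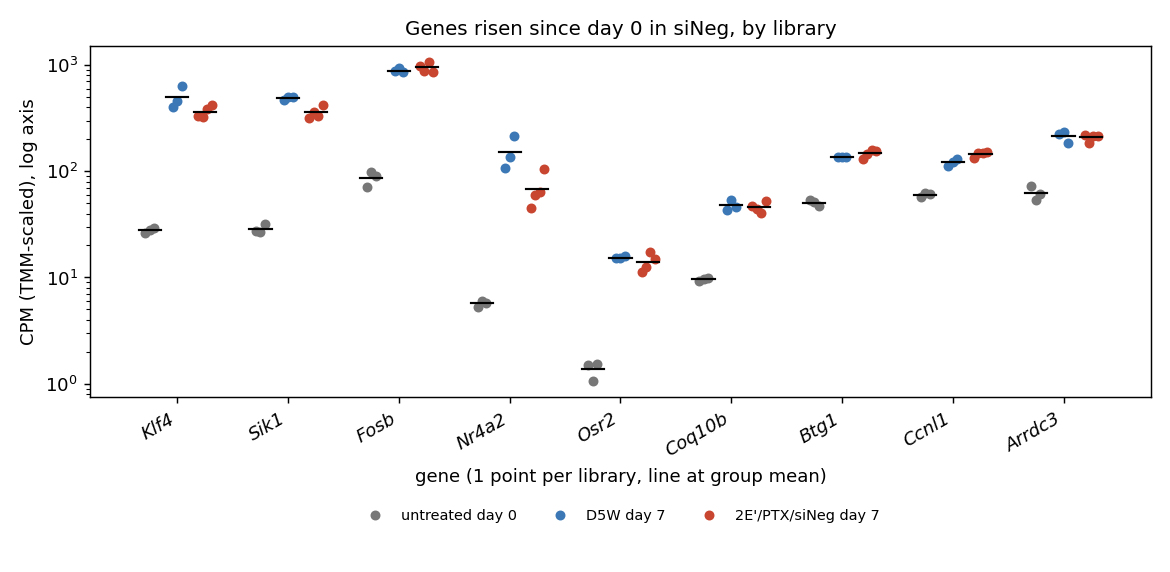
CPM (y axis, log scale) of 9 genes that rose in siNeg, 1 point per library with a line at the group mean, for day 0, D5W and siNeg. In each gene the siNeg and D5W points lie together or near each other and above all day 0 points, from 27.9 to 364 CPM on average for Klf4 and from 1.36 to 14 CPM for Osr2.

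Egr1 and Jun, which bind the promoters of growth and stress genes, also rose in both groups. Egr1 had 24.8, 29.9 and 25.2 CPM at day 0, 73.6, 68.7 and 98.1 CPM in D5W and 189, 141, 131 and 124 CPM in siNeg. Its siNeg libraries were above all D5W libraries, and the direct difference was 0.87 ± 0.27 on the log2 scale (adjusted p = 0.183). Fos had 545, 502 and 597 CPM at day 0, 601, 801 and 350.4 CPM in D5W and 1667, 1316, 1081 and 884 CPM in siNeg, and the fold over day 0 was 1.17 ± 0.33 in siNeg (adjusted p = 0.0267) and 0.09 ± 0.34 in D5W (adjusted p = 0.869). The Fos call was lost without day 0 replicates 1, 2 or 3 or siNeg replicate 1 (adjusted p 0.0635 to 0.097), and the direct contrast gave 1.08 ± 0.33 (adjusted p = 0.178). Ier3, an early gene of cell survival, was the member that fell, with -0.57 in siNeg and -0.83 in D5W, and its siNeg call was lost without day 0 replicate 1 (adjusted p 0.0767). Against D5W directly no member passed with edgeR, 18 of 32 did at an unadjusted p under 0.05 (14.9% of all genes), and DESeq2 called 6.

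The full cAMP response element, TGACGTCA, binds CREB and related AP-1 and ATF factors. Of the 23 immediate early members with a promoter in the RefSeq table (300 bases, GRCm38.p6), 3 held it on either strand, Dusp1, Btg2 and Maff, all among the 21 that rose. Of 11851 tested genes with a promoter, 3.27% held it. The 250 bases before the start are shown for Btg2, an antiproliferative gene, and Dusp1, a MAP kinase phosphatase, because they are the 2 holders of smallest p. They lie on the minus strand at chr1:134079156-134079405 and chr17:26508473-26508722, are printed 5′ to 3′, and carry the element in capitals at 166 and 143 bases before the start.
Btg2: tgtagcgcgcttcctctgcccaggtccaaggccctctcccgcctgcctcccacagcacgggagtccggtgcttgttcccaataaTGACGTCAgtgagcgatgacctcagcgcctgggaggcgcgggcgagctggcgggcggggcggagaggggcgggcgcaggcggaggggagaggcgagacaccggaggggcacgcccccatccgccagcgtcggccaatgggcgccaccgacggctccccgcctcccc
Dusp1: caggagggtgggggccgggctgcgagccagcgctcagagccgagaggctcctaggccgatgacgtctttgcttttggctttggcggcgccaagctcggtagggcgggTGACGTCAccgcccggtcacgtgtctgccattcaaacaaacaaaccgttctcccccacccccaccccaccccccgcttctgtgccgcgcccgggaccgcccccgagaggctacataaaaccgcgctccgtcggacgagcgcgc
Btg2 rose from 3.5 ± 0.101 to 21.7 ± 2.54 CPM and Dusp1 from 36.8 ± 3.61 to 107 ± 14.3 CPM, log2 fold changes of 2.63 ± 0.20 and 1.54 ± 0.14 (adjusted p = 2.76e-06 and 1.17e-05). The D5W values were 2.76 and 0.96. A match describes these letters only and shows no binding.

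Genes of the type I interferon response rose in siNeg. Of 26 tested members, 20 rose and 1 fell against day 0, with a median log2 fold change of 1.10. In D5W the median was 0.34. There edgeR called none higher and 1 lower, 6 passed an unadjusted p under 0.05 (36.9% of all genes), and DESeq2 called 3 higher and limma voom none. The siNeg count was 12 without day 0 replicate 3, 13 without day 0 replicate 1 and 16 without siNeg replicate 3, the library with the highest levels. Summed over the list, levels were 189.7 to 216 CPM at day 0, 201 to 281 CPM in D5W and 261 to 436 CPM in siNeg.

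Irf7, the transcription factor that amplifies type I interferon, had 3.02, 2.84 and 2.68 CPM at day 0, 4.32, 2.66 and 4.61 CPM in D5W and 8.49, 10.8, 17.4 and 4.88 CPM in siNeg. The siNeg libraries lay above all 6 others, with replicate 3 highest and replicate 4 lowest, and the log2 fold change over day 0 was 1.87 ± 0.37 (adjusted p = 0.00458). Usp18, which restrains signalling at the interferon receptor, rose from 1.63 ± 0.405 to 5.27 ± 2.72 CPM, by 1.69 ± 0.32. Oas2, an activator of RNase L, rose by 1.52 ± 0.30, and Dhx58 and Ddx58, sensors of viral RNA, rose by 1.02 ± 0.20 and 0.98 ± 0.21 (adjusted p = 0.00406 and 0.00649). The corresponding D5W values were 0.36, 0.41, 0.26 and 0.27. The member that fell was Isg20, an exonuclease of RNA, with -0.97 ± 0.21 in siNeg and -0.70 ± 0.22 in D5W. Rsad2, Cmpk2, Stat2, Isg15 and Ifit2 did not pass with edgeR, and their log2 fold changes ran from 0.00 to 0.54. Of the 26 limma voom called 21 higher and 1 lower.

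**Figure D3:**
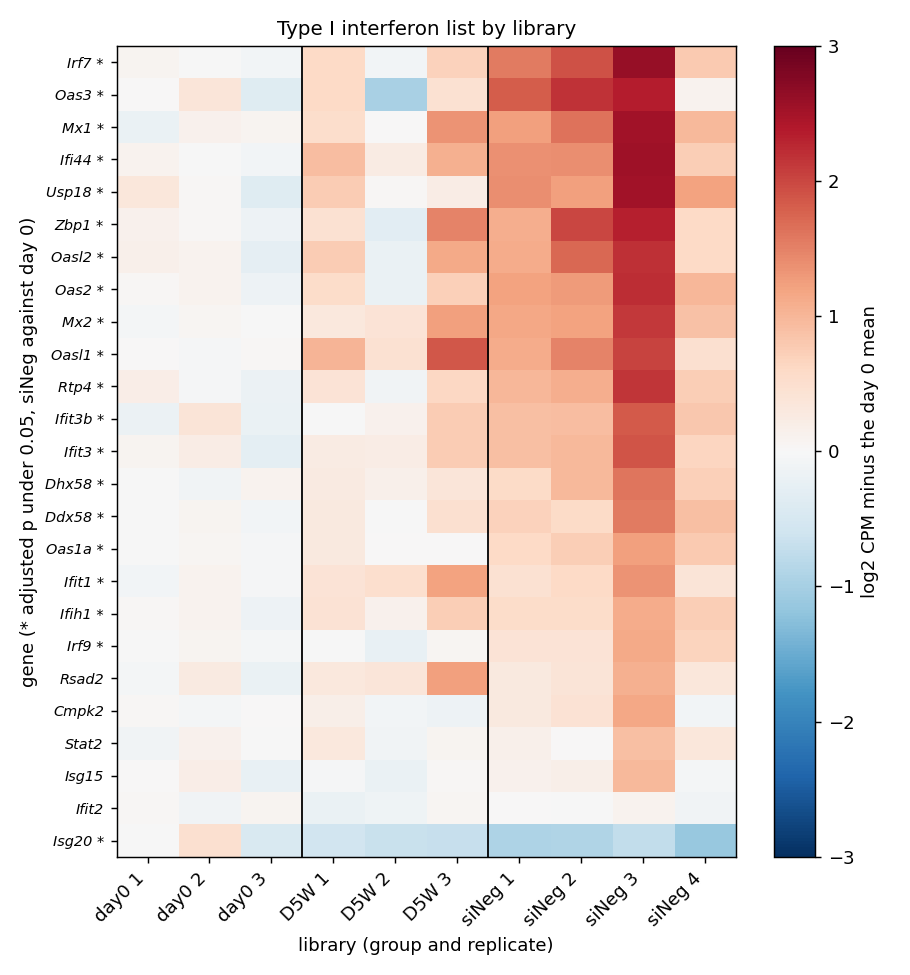
Log2 CPM minus the day 0 mean (colour) for 25 of the 26 tested type I interferon genes (rows) in the 10 day 0, D5W and siNeg libraries (columns), with a star for an adjusted p under 0.05 against day 0. Replicate 3 is the strongest siNeg column, the D5W columns are weaker with replicate 3 the strongest of them, and Isg20 is the starred gene that fell.

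The direct contrast of siNeg with D5W gave a median of 0.74 over these 26 genes. With edgeR none passed, 18 passed an unadjusted p under 0.05, and DESeq2 called 10 higher and limma voom 5 higher. Oas1a, another activator of RNase L, came nearest, with 9.59, 7.87 and 7.81 CPM in D5W and 11.8, 13, 18.2 and 13.5 CPM in siNeg and no overlap, a log2 difference of 0.75 ± 0.13 (adjusted p = 0.0502). Parp12, an interferon-inducible ADP-ribosyltransferase outside the list, had 40.7, 33.5 and 31.4 CPM in D5W and 48.6, 53, 66.5 and 51.9 CPM in siNeg, a difference of 0.64 ± 0.12 (adjusted p = 0.0502). Parp10 and Parp9, of the same enzyme family, differed by 0.57 ± 0.11 and 0.57 ± 0.12 (adjusted p = 0.0622 and 0.0734). Slfn4, an interferon-induced gene of myeloid cells, had 0.685, 1.14 and 0.419 CPM at day 0, 1.36, 0.734 and 1.9 CPM in D5W and 7.28, 11, 16.7 and 2.07 CPM in siNeg. Every siNeg library was above every other library, although they spread widely. Its log2 fold change was 3.66 ± 0.75 over day 0 (adjusted p = 0.0063) and 2.80 ± 0.70 over D5W (adjusted p = 0.122).

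The interferon-stimulated response element was searched on both strands as GAAA, any 2 bases, then GAAA. It was found in the promoters of 10 of 18 list members and of 7 of the 12 members that rose and have a promoter in the table, against 3.81% of 11851 tested genes. The members that rose and held it were Ifit1, Ifit3, Ifit3b, Oas1a, Oas3, Ddx58 and Ifih1. The promoter of Oas1a is shown as the holder of smallest p, minus strand at chr5:120907526-120907775, with 2 overlapping matches in capitals that start 20 and 14 bases before the start.
Oas1a: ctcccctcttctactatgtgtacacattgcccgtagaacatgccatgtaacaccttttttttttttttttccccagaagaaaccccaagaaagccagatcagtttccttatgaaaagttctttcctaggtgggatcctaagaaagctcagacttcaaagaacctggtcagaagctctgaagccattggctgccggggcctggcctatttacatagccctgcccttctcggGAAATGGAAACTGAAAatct
Oas1a itself went from 7.67, 8.09 and 7.61 CPM at day 0 to the siNeg values above, 0.86 ± 0.14 on the log2 scale (adjusted p = 0.00094), and its D5W value was 0.11 ± 0.14.

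Genes that load peptides onto MHC class I, which shows them to CD8 T cells, and genes induced by interferon gamma rose as well. Of 20 MHC class I genes 11 rose and 2 fell in siNeg (median 0.53), and 3 rose in D5W (median 0.11). Of 14 interferon gamma genes 8 rose in siNeg (median 1.15) and 3 in D5W (median 0.83). Directly against D5W no gene of either list passed with edgeR. At an unadjusted p under 0.05, 9 of the 20 and 3 of the 14 passed, against 14.9% of all genes. DESeq2 called 1 MHC class I gene higher and 1 lower and 2 interferon gamma genes higher, and limma voom 1 MHC class I gene higher. B2m, the light chain of MHC class I, had 262, 193 and 219 CPM at day 0, 355, 247 and 282 CPM in D5W and 312, 457, 498 and 406 CPM in siNeg. The siNeg libraries lay above those of day 0 but overlapped those of D5W, and the log2 fold change was 0.90 ± 0.17 over day 0 (adjusted p = 0.00317). Tap2, a subunit of the peptide transporter, rose by 1.12 ± 0.19, Nlrc5, the transactivator of MHC class I genes, by 1.74 ± 0.28, and Erap1, which trims peptides, by 0.51 ± 0.10. In D5W they differed by 0.60, 1.53 and 0.22. The 2 that fell, Calr and Pdia3, are chaperones of the endoplasmic reticulum that also serve peptide loading, with -0.45 and -0.43. The Calr call was lost without day 0 replicate 2 (adjusted p 0.0557). Irgm2, an interferon-inducible GTPase, rose by 1.34 ± 0.22, and Socs3, an inhibitor of cytokine signalling, by 2.23 ± 0.33 in siNeg and 1.70 ± 0.34 in D5W. The count of MHC class I genes that rose was 6 without day 0 replicate 2 or 3, and that of interferon gamma genes 5 without day 0 replicate 1 and 4 without day 0 replicate 2 or 3 or siNeg replicate 3. Of 11 MHC class II genes none passed with edgeR, either adjusted or at an unadjusted p under 0.05, and none with DESeq2 or limma voom (median 0.49).

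Cd274 encodes PD-L1, the ligand that restrains T cells through PD-1. It had 11.8, 12.5 and 11.8 CPM at day 0, 14.8, 13.8 and 18.5 CPM in D5W and 17.6, 31.6, 28.8 and 21.6 CPM in siNeg. The siNeg libraries did not overlap those of day 0, and the log2 fold change was 1.05 ± 0.18 (adjusted p = 0.00139). The D5W value was 0.39 ± 0.18 (adjusted p = 0.143) and the direct difference 0.67 ± 0.17 (adjusted p = 0.122). A two-sided exact permutation test over the 35 assignments of the 7 libraries gave p = 0.0571, the smallest this design can give. Cd274 rose in each of the 18 alternatives tried, with values of 0.92 to 1.17.

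Transcripts of cytotoxic lymphocytes were higher in siNeg, at low levels. Of 12 tested effector genes 6 rose (median 2.23), and in D5W 1 rose (median 0.42). Directly against D5W none of the 12 passed with edgeR, and DESeq2 and limma voom each called 2 higher. At an unadjusted p under 0.05 edgeR held 7 of the 12, where 14.9% of all genes passed. Gzmb, a granzyme that starts apoptosis in target cells, had 0.219, 0.199 and 0.178 CPM at day 0, 0.497, 0.237 and 1.27 CPM in D5W and 1.25, 2.23, 3.84 and 0.474 CPM in siNeg. Replicates 2 and 3 of siNeg were high, replicates 1 and 4 lay within the range of D5W, and the log2 fold change was 3.29 ± 0.74 over day 0 (adjusted p = 0.00824). Gzma, a granzyme of the same granules, had 0.102, 0.0543 and 0.0888 CPM at day 0, 0.0591, 0.0452 and 0.205 CPM in D5W and 0.47, 0.818, 0.972 and 0.167 CPM in siNeg. Replicate 4 again lay within the range of D5W, and the log2 fold change was 2.85 ± 0.61 over day 0 (adjusted p = 0.00611) and 2.57 ± 0.58 over D5W (adjusted p = 0.0929). The others that rose were Prf1, which forms pores, Gzmc, Nkg7 and Fasl, by 2.43, 2.59, 2.27 and 4.29, all under 1 CPM on average. Their calls were lost when single libraries were left out, and the count of effector genes was 2 of 13 without day 0 replicate 1 or 2, 3 of 13 without day 0 replicate 3, 3 of 9 without siNeg replicate 2 and 2 of 9 without siNeg replicate 3. Only 9 of the 12 passed the filter on low counts without siNeg replicate 2 or 3. The counts and the median thus rest in part on genes that entered through those libraries and are given as a description. A fold for Fasl rests on 2 day 0 libraries with no count and is no measure of size.

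Identity genes of these lymphocytes mostly did not pass. Of 18 T cell genes 2 rose in siNeg, a share near the 10.5% of all genes, namely Cd8a, the CD8 coreceptor, by 1.92 ± 0.55 and Icos, a costimulatory receptor, by 2.46 ± 0.64, with a list median of 1.06 against 0.64 in D5W. DESeq2 called 4 higher and limma voom 6 higher and 1 lower, and the median was -0.19 over the 4 members above 1 CPM in at least 3 libraries. Cd8a was lost without day 0 replicates 1, 2 or 3 or siNeg replicates 2 or 3 (adjusted p 0.0627 to 0.097) and Icos without day 0 replicates 1 or 3 (adjusted p 0.0653 to 0.0874). Of 6 NK cell genes none passed with edgeR (median 1.29), 4 passed an unadjusted p under 0.05 (32.7% of all genes), and DESeq2 called 2 and limma voom 3. Among checkpoint genes Ctla4, an inhibitory receptor of T cells, had 0.175, 0.235 and 0.165 CPM at day 0, 0.911, 0.508 and 1.05 CPM in D5W and 0.927, 2.51, 2.34 and 0.586 CPM in siNeg, a rise of 3.06 ± 0.54 in siNeg (adjusted p = 0.00194) and 2.11 ± 0.55 in D5W. For these lists siNeg replicates 2 and 3 were the high libraries, with T cell sums of 21.3 and 18.5 CPM against 11.8 and 10.6 CPM in replicates 1 and 4 12.1 to 13.3 CPM at day 0 and 11.1 to 23.1 CPM in D5W. In bulk RNA more cells of a type and more RNA per cell cannot be told apart. Ly6c2, a surface protein of memory T cells and monocytes, had 0.414, 0.237 and 0.59 CPM in D5W and 2.96, 2.87, 5.49 and 0.768 CPM in siNeg, 3.22 ± 0.63 over day 0 (adjusted p = 0.00387) and 2.87 ± 0.60 over D5W (adjusted p = 0.0769).

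**Figure D4:**
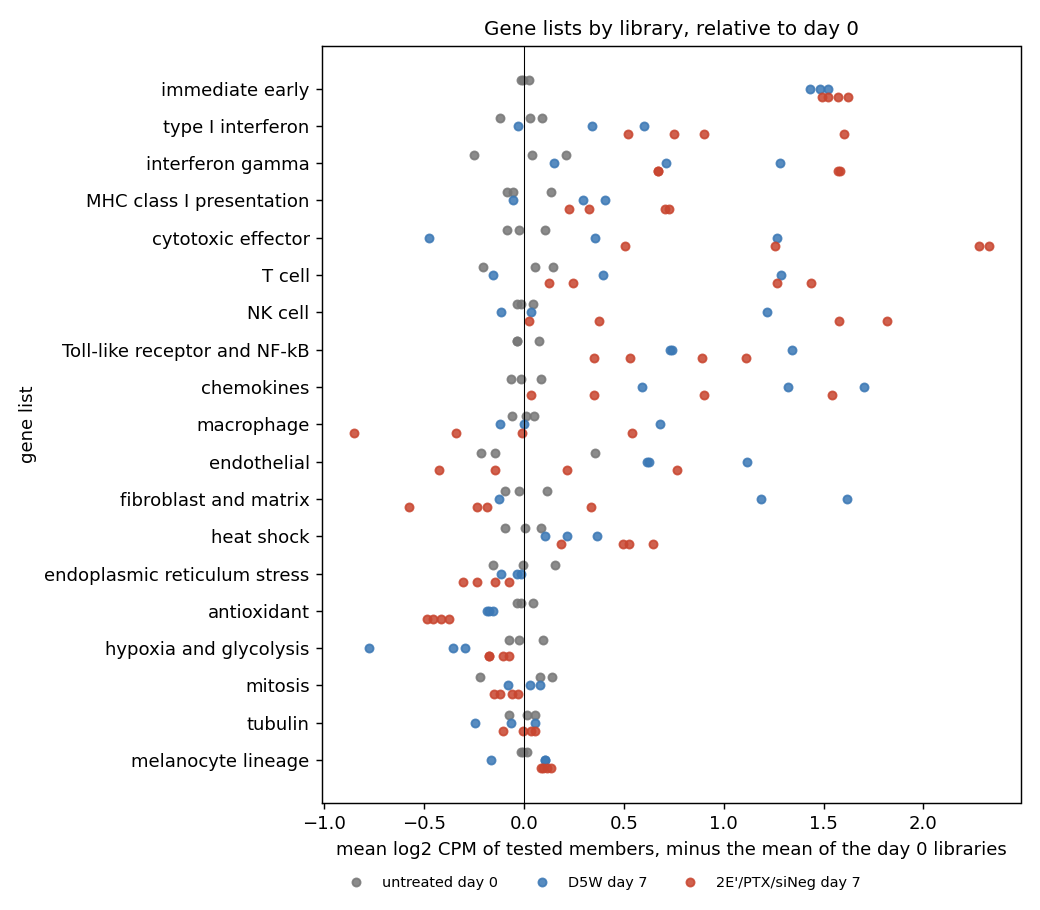
Mean log2 CPM of the tested members of 19 gene lists (rows) in each library, minus the mean of the day 0 libraries (x axis), for day 0, D5W and siNeg. The immediate early points of both day 7 groups coincide near 1.5, the interferon and cytotoxic lists spread to the right in siNeg, and 2 of the 3 D5W points lie beyond 1 for the fibroblast list where the siNeg points lie around 0.

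Genes of NF-kB inflammation rose in both day 7 groups. Of 26 genes of Toll-like receptor and NF-kB signalling 8 rose in siNeg (median 0.22) and 10 in D5W (median 0.32). Of 18 chemokines 4 rose in siNeg and 6 in D5W. Over all genes 10.5% rose in siNeg and 11.8% in D5W. Il1a, a cytokine that starts inflammation, had 0.219, 0.434 and 0.279 CPM at day 0 and 2.96, 5.09, 3.43 and 3 CPM in siNeg. Tnf, another such cytokine, had 0.379, 0.38 and 0.495 CPM at day 0 and 2.35, 4.98, 3.85 and 3.46 CPM in siNeg. Neither overlapped between the groups, and the log2 fold changes were 3.56 ± 0.52 and 3.12 ± 0.52 in siNeg (adjusted p = 0.000652 and 0.00157) and 4.46 and 3.99 in D5W. Nfkbiz, an inducible co-regulator of NF-kB, rose by 2.08 ± 0.21 in siNeg and 2.07 ± 0.22 in D5W, and Rel, an NF-kB subunit, by 1.14 ± 0.14 and 1.53 ± 0.14. Il6, a cytokine of the acute phase, had 0.117, 0.0724 and 0.0508 CPM at day 0, 3.06, 0.847 and 4.22 CPM in D5W and 0.522, 0.907, 0.768 and 0.321 CPM in siNeg, and D5W replicate 2 lay within the siNeg range. The neutrophil chemokine Cxcl1 had 9.7, 2.59 and 15.1 CPM in D5W and 1.36, 2.38, 1.75 and 0.642 CPM in siNeg after 0.233, 0.181 and 0.216 CPM at day 0. Directly, siNeg over D5W was -2.10 ± 0.55 for Il6 and -2.57 ± 0.57 for Cxcl1 on the log2 scale, and neither passed (adjusted p = 0.124 and 0.0965). In that contrast no gene of either list passed with edgeR or limma voom, and DESeq2 called 1 of the 26 and 3 of the 18 lower. At an unadjusted p under 0.05 edgeR held 4 of the 26 and 4 of the 18, where 14.9% of all genes passed. The rises of Il6 and Cxcl1 over day 0, 2.96 and 2.85, were lost without day 0 replicates 1, 2 or 3 (adjusted p 0.0503 to 0.0682) for Il6 and (adjusted p 0.0586 to 0.0689) for Cxcl1. The counts in siNeg were 4 of 26 without any 1 of the day 0 libraries and for chemokines 1 of 19 without day 0 replicate 1, 2 of 19 without day 0 replicate 2 and 1 of 18 without day 0 replicate 3.

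An NF-kB site, searched on both strands as GGGA, any base, then TTTCC, was found in 4 of 21 promoters of this list and in 0.532% of all 11851. Among the 7 members that rose and have a promoter in the table it was in those of Nfkbia, the inhibitor IκBα, and Il6, and these are shown as the 2 holders. Il6 lies on the plus strand at chr5:30012864-30013113 and Nfkbia on the minus strand at chr12:55492648-55492897, with the site in capitals 44 and 29 bases before the start.
Il6: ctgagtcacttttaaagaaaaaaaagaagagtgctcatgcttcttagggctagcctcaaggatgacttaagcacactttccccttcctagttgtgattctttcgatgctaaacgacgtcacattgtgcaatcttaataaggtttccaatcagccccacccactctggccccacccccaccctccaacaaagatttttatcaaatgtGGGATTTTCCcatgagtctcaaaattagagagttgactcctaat
Nfkbia: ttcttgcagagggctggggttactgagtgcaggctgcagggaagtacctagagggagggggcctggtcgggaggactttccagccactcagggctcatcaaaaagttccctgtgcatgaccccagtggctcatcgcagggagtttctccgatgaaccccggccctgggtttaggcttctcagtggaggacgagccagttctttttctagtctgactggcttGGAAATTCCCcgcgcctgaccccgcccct
Nfkbia stood at 13.4 ± 0.415 CPM at day 0 and 24.7 ± 7.38 CPM in siNeg, 0.89 ± 0.26 on the log2 scale (adjusted p = 0.033), with replicate 2 highest, and 1.15 ± 0.28 in D5W. Its siNeg call was lost without day 0 replicates 1, 2 or 3 or siNeg replicates 2 or 3 (adjusted p 0.064 to 0.112).

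Among protein-coding genes past the threshold with a mean of at least 1 CPM over siNeg and day 0 and no overlap between them, the 12 largest falls were Fgf21, Cdsn, Acox2, Otog, Avil, Sspo, Loxl4, Nrip2, Akr1b7, Tmem179, Papss2 and Sec16b, with log2 fold changes from -3.08 to -1.83 in siNeg and from -0.99 to 0.31 in D5W. Tmem179 also fell in D5W, and Cdsn, Acox2, Avil, Loxl4, Tmem179, Papss2 and Sec16b passed in the direct contrast of siNeg with D5W. Fgf21, a stress hormone induced through ATF4 (chromosome 7, 45613886 to 45615490, GRCm38), had 10.2, 13.9 and 7.23 CPM at day 0, 7.17, 6.43 and 7.02 CPM in D5W and 1.48, 0.803, 2.24 and 0.377 CPM in siNeg. The siNeg libraries lay below all 6 others, and the log2 fold change was -3.08 ± 0.45 over day 0 (adjusted p = 0.000716) and -2.48 ± 0.45 over D5W (adjusted p = 0.0542). Cdsn, an adhesion protein of cornified skin, had 2.48, 1.5, 3.62 and 0.893 CPM in siNeg after 14.5, 27.8 and 11 CPM at day 0 and 10.4, 12.4 and 14.5 CPM in D5W. Every siNeg library was below all 6 others, with log2 fold changes of -3.05 ± 0.38 over day 0 (adjusted p = 0.000276) and -2.54 ± 0.38 over D5W (adjusted p = 0.0324). The Cdsn call over D5W was lost without D5W replicate 3 or siNeg replicates 1 or 2 (adjusted p 0.0712 to 0.0934). Day 0 replicate 2 was the highest of the day 0 libraries for every gene of the 12 but Tmem179, and it also had the largest mitochondrial share. The part of that share in the falls was not tested. Avil and Nrip2 overlap other genes, and as the strand setting of the counting is not given in the sources used here, their values are less certain.

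Acox2, an oxidase of branched fatty acids and bile acid intermediates, had a log2 fold change of -2.88 ± 0.38 over day 0 and -2.42 ± 0.38 over D5W (adjusted p = 0.0324). Papss2, which makes the sulfate donor PAPS, had 7.28, 8.96 and 6.98 CPM at day 0, 4.79, 6.33 and 11.6 CPM in D5W and 2.4, 1.84, 2.81 and 1.35 CPM in siNeg. Its siNeg libraries lay below all others, with -1.88 ± 0.27 over day 0 (adjusted p = 0.000476) and -1.85 ± 0.27 over D5W (adjusted p = 0.0323). Tmem179, a membrane protein, stepped from 63 ± 4.68 CPM at day 0 to 31.8 ± 5.28 CPM in D5W and 15.6 ± 2.97 CPM in siNeg. Both steps passed, with log2 fold changes of -0.99 ± 0.16 for D5W over day 0 and -1.02 ± 0.15 for siNeg over D5W (adjusted p = 0.00143 and 0.0323). The Tmem179 call over D5W was lost without D5W replicate 3 or siNeg replicates 2 or 4 (adjusted p 0.054 to 0.0623). That of Acox2 was lost without D5W replicate 3 or siNeg replicates 1, 2 or 4 (adjusted p 0.0588 to 0.0877). That of Papss2 was lost without siNeg replicates 1 or 2 (adjusted p 0.054 to 0.0877).

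**Figure D5:**
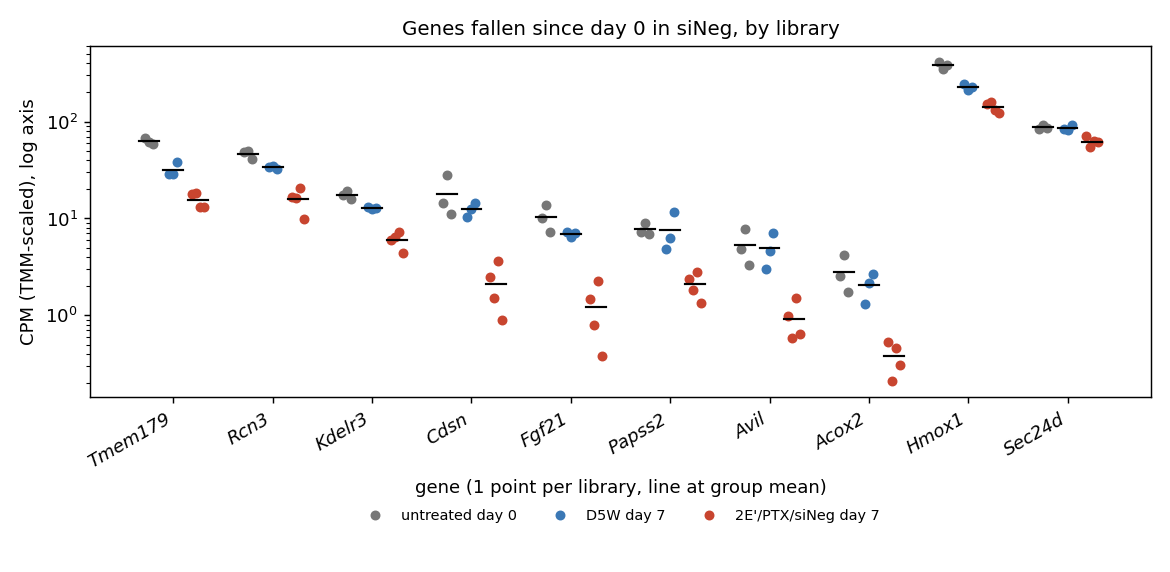
CPM (y axis, log scale) of 10 genes that fell in siNeg, 1 point per library with a line at the group mean, for day 0, D5W and siNeg. The siNeg points lie below all day 0 and D5W points in each gene, as for Kdelr3, at 4.4 to 7.26 CPM in siNeg against 12.4 to 19.4 CPM elsewhere.

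Among all tested genes, 15 differed both from day 0 and from D5W, and 14 of them were lower in siNeg. Besides Cdsn, Acox2, Avil, Loxl4, Tmem179, Papss2 and Sec16b, these were Kdelr3, Rcn3, P3h2, Sec24d, Sec23a, Hmox1 and Serpinf1. Kdelr3, a receptor that returns proteins to the endoplasmic reticulum, had 17.6, 19.4 and 15.8 CPM at day 0, 13.2, 12.4 and 12.8 CPM in D5W and 6.06, 6.48, 7.26 and 4.4 CPM in siNeg. The 3 groups did not overlap, and the log2 fold change was -1.54 ± 0.14 over day 0 (adjusted p = 1.09e-05) and -1.08 ± 0.14 over D5W (adjusted p = 0.0222). Sec24d and Sec23a form the inner COPII coat that carries cargo out of the endoplasmic reticulum, and Sec16b organises the sites where it forms. Their log2 fold changes were -0.48 ± 0.08, -0.26 ± 0.07 and -1.83 ± 0.34 over day 0 and -0.47 ± 0.08, -0.42 ± 0.07 and -2.14 ± 0.33 over D5W. The Sec23a call over day 0 was lost without day 0 replicates 1, 2 or 3 or siNeg replicates 3 or 4 (adjusted p 0.0503 to 0.081). Rcn3 and P3h2, which act on collagen in the same compartment, had -1.55 ± 0.17 and -0.37 ± 0.10 over day 0, and Serpinf1, a secreted inhibitor of vessel growth, -1.39 ± 0.17. The gene of the 15 that was higher was St3gal1, a sialyltransferase, with 57.5, 62.3 and 65.7 CPM at day 0, 72, 68.5 and 57.8 CPM in D5W and 120.0, 124, 97.6 and 166 CPM in siNeg. Its siNeg libraries lay above all 6 others, by 1.04 ± 0.17 over day 0 and 0.94 ± 0.16 over D5W (adjusted p = 0.00115 and 0.0467). The direct contrast with D5W called no gene without siNeg replicate 2, with 2017 genes at an unadjusted p under 0.05, and it called 123 genes without D5W replicate 2, 4 without siNeg replicate 1 and 7 without siNeg replicate 4. Without D5W replicate 3 it called 17 genes, 5 of them among the 18.

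Chaperones of the endoplasmic reticulum fell in siNeg. Of 18 genes of the endoplasmic reticulum stress list 10 fell and 2 rose (median -0.30), and 4 fell and 3 rose in D5W (median -0.11). Over all genes 7.91% fell and 10.5% rose in siNeg, and 9.69% fell and 11.8% rose in D5W. Directly against D5W none of the 18 passed with edgeR or limma voom, and DESeq2 called 2 lower. At an unadjusted p under 0.05 edgeR held 8 of the 18, where 14.9% of all genes passed. Hspa5, the chaperone BiP, had 1461, 1846 and 1318 CPM at day 0, 1341, 1462 and 1500.0 CPM in D5W and 1266, 947, 1096 and 983 CPM in siNeg, a log2 fold change of -0.52 ± 0.12 (adjusted p = 0.00798) whose call was lost without day 0 replicate 2 (adjusted p 0.053). Pdia4, a disulfide isomerase, fell with -0.64 ± 0.11 and Sdf2l1, a cofactor of BiP, with -0.73 ± 0.12 (adjusted p = 0.00126 and 0.00134), and in D5W these were -0.20 and -0.45. Ddit3, the stress factor CHOP, fell in both groups, with -0.70 ± 0.14 in siNeg and -0.95 ± 0.15 in D5W. It overlaps a second Ddit3 entry and Mars, so its reads may be split. Atf3, which rose by 1.66 ± 0.17, is also an immediate early gene. The count that fell was 6 without day 0 replicate 2 and 7 to 9 without any other single library.

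Hmox1, which degrades heme and is a target of Nrf2, had 413, 352 and 384 CPM at day 0, 242, 214 and 226 CPM in D5W and 150.1, 159.6, 133 and 124 CPM in siNeg. The 3 groups did not overlap, and the log2 fold changes were -1.43 ± 0.12 from day 0 in siNeg (adjusted p = 3.57e-06), -0.75 ± 0.13 from day 0 in D5W (adjusted p = 0.0015) and -0.68 ± 0.12 from D5W to siNeg (adjusted p = 0.0385). The Hmox1 call from D5W to siNeg was lost without D5W replicates 1 or 3 or any 1 of the siNeg libraries (adjusted p 0.0699 to 0.0877). Fth1, the heavy chain of the iron store ferritin, fell from 3011 ± 184 to 1561 ± 96 CPM, with -0.95 ± 0.09 in siNeg and -0.67 ± 0.09 in D5W. Gclm, of glutathione synthesis, and Nqo1, a quinone reductase, fell with -0.57 ± 0.11 and -0.58 ± 0.14 in siNeg, and their D5W values of -0.05 and -0.25 did not pass. The Nqo1 call was lost without day 0 replicate 1 (adjusted p 0.0529). In total, 4 of 15 antioxidant genes fell in siNeg (median -0.34), and 4 fell and 2 rose in D5W (median -0.25). Over all genes 7.91% fell in siNeg, and 9.69% fell and 11.8% rose in D5W. For siNeg against day 0 DESeq2 called 6 lower and limma voom 12 lower. Directly against D5W edgeR called 1 of the 15 lower, Hmox1, DESeq2 6 lower and limma voom 4 lower. At an unadjusted p under 0.05 edgeR held 9 of the 15 there, where 14.9% of all genes passed.

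Red cell transcripts were lower in the same libraries. The erythroid list summed to 175 to 1054 CPM at day 0, 51.2 to 199 CPM in D5W and 45.1 to 129 CPM in siNeg, with day 0 replicate 2 the highest library. Its median log2 fold change was -3.39 in siNeg and -2.67 in D5W, and 2 of 8 members passed in each with edgeR. DESeq2 called 8 lower in siNeg and 4 in D5W, and limma voom 5 and 1. Without day 0 replicate 2 the siNeg median was -1.95 and 1 passed, and 1 also passed without day 0 replicate 1 or siNeg replicate 1, 3 or 4. Bpgm, an enzyme of red cell glycolysis, fell with -0.56 ± 0.08 in siNeg (adjusted p = 0.000661) and -0.42 ± 0.09 in D5W. The part of blood content in the fall of Hmox1 was not tested.

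Of 21 hypoxia and glycolysis genes 4 fell and 2 rose in siNeg (median 0.05), and 9 fell in D5W (median -0.38). The 2 rises, Hk2 and Kdm3a, were lost without day 0 replicates 2 or 3 or siNeg replicates 1, 3 or 4 (adjusted p 0.0599 to 0.12) for Hk2, which starts glycolysis, and without day 0 replicates 1, 2 or 3 or siNeg replicates 2, 3 or 4 (adjusted p 0.06 to 0.126) for Kdm3a, a histone demethylase. Ddit4, an inhibitor of mTORC1, fell in both, with -1.28 ± 0.16 in siNeg (adjusted p = 0.000262) and -1.56 ± 0.18 in D5W, and Adm, a vasodilator peptide, with -0.80 ± 0.12 and -1.26 ± 0.13. Vegfa, the growth factor of vessels, had 356, 329.8 and 311 CPM at day 0, 277, 266 and 222 CPM in D5W and 338, 341, 375 and 417 CPM in siNeg. The siNeg libraries overlapped those of day 0 and lay above all those of D5W, 0.14 ± 0.09 from day 0 (adjusted p = 0.286) and 0.53 ± 0.09 from D5W (adjusted p = 0.0386). That call was lost without D5W replicate 3, the lowest library, or any 1 of the siNeg libraries (adjusted p 0.0722 to 0.0877). It was the only member of the list past the threshold in the direct contrast with edgeR. There DESeq2 called 6 higher and limma voom 4 higher. At an unadjusted p under 0.05 edgeR held 15 of the 21, where 14.9% of all genes passed. In that contrast 19 of the 21 had a log2 fold change above 0 (median 0.32). The letters TACGTG of the hypoxia response element were in 4 of 18 promoters of the list and in 4.29% of all, and neither of the 2 members that rose held them.

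Mitosis is the setting in which paclitaxel acts. Of 24 mitosis genes 4 fell and 1 rose in siNeg (median -0.14), and 1 fell and 3 rose in D5W (median -0.05). With both directions pooled the siNeg share is near the 18.4% of all genes. By direction, 7.91% of all genes fell and 10.5% rose, and 7 of the 24 had a log2 fold change above 0. DESeq2 called 6 lower and 1 higher and limma voom 12 lower and 3 higher. Plk1, a mitotic kinase, had 122, 90.2 and 120.3 CPM at day 0 and 91.4, 87.1, 82 and 78.1 CPM in siNeg, so the groups overlapped through day 0 replicate 2, with -0.39 ± 0.11 (adjusted p = 0.0205). Aurka, another mitotic kinase, had -0.31 ± 0.09, and Mad2l1, of the spindle checkpoint, -0.24 ± 0.07. The 4 calls, with Birc5, were lost without any 1 of day 0 replicate 1, day 0 replicate 3, siNeg replicate 3 or siNeg replicate 4 (adjusted p for Plk1 0.0542 to 0.119), and without siNeg replicate 1 the count that fell was 2. Without day 0 replicate 2 it was 7. Of 22 DNA replication genes 3 had a log2 fold change above 0 in siNeg (median -0.16). Of the 22, 4 fell and none rose, where 7.91% of all genes fell and 10.5% rose. The 4 were Gins2, Gins3, Tyms and Ccne2, with -0.44, -0.42, -0.33 and -0.39. Their count was 1 without day 0 replicate 3 and 2 without day 0 replicate 1 or 2 or siNeg replicate 2. DESeq2 called 5 of these 22 lower and limma voom 11.

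Among 12 tubulin genes Tubb2a, a β-tubulin, rose from 11.7 ± 0.311 to 19 ± 0.662 CPM, 0.70 ± 0.12 in siNeg (adjusted p = 0.00159) and 0.68 ± 0.13 in D5W. The 11 others did not pass with edgeR, with log2 fold changes from -0.58 to 0.57, while limma voom called 3 of the 12 higher and 4 lower. Of 20 p53 target genes 5 rose and 1 fell in siNeg (median -0.04), and 5 rose in D5W (median 0.1). In siNeg 9 of the 20 had a log2 fold change above 0, and of all genes 10.5% rose and 7.91% fell. The count of p53 targets that rose in siNeg was 3 without day 0 replicate 1. The rise of Mdm2, the ligase that degrades p53, was lost without day 0 replicates 1, 2 or 3 or siNeg replicates 2, 3 or 4 (adjusted p 0.0691 to 0.105), and the fall of Gadd45a, a stress sensor, without day 0 replicates 1 or 2 or siNeg replicates 1, 2 or 4 (adjusted p 0.0766 to 0.162). The 3 largest, Btg2, Plk2, a polo-like kinase induced by serum, and Pmaip1, the proapoptotic protein Noxa, rose by 2.63, 2.58 and 2.19 in siNeg and 2.76, 2.42 and 1.85 in D5W. Btg2 is also on the immediate early list. The Pmaip1 call was lost without day 0 replicate 1 (adjusted p 0.0583). Cdkn1a, the p53 target that halts the cycle, stood at -0.15 ± 0.20 in siNeg (adjusted p = 0.642).

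Heat shock genes rose in siNeg, 7 of 15 with 1 fall (median 0.31), and 2 rose in D5W (median 0.23). The shares of all genes that rose were 10.5% in siNeg and 11.8% in D5W. Directly against D5W none of the 15 passed with edgeR or limma voom, and DESeq2 called 1 higher. At an unadjusted p under 0.05 edgeR held 3 of the 15, where 14.9% of all genes passed. Hspa1b, an inducible HSP70, had 25.4, 33.8 and 19.5 CPM at day 0, 79.3, 47.7 and 42.7 CPM in D5W and 102, 105, 55.7 and 104 CPM in siNeg, a rise of 1.81 ± 0.32 in siNeg and 1.11 ± 0.33 in D5W. Hspa1a and Hspa1b are near-identical copies, so their reads may be divided between them. Hsph1, a cochaperone of HSP70, rose by 0.61 ± 0.12 in siNeg (adjusted p = 0.00374), with 0.30 ± 0.13 in D5W (adjusted p = 0.101). The count of rises was 3 without day 0 replicate 1 or 3 and 4 without day 0 replicate 2, siNeg replicate 1 or siNeg replicate 4. Of 14 circadian clock genes 8 rose in siNeg (median 0.34), and 6 rose and 2 fell in D5W (median 0.31), where 9.69% of all genes fell. Directly against D5W none of the 14 passed with edgeR or limma voom, and DESeq2 called 1 higher. At an unadjusted p under 0.05 edgeR held 6 of the 14. Per1, a clock repressor that is also an immediate early gene, went from 47.8, 45.8 and 46.4 CPM at day 0 to 147, 132, 126 and 128 CPM in siNeg, 1.51 ± 0.18, and Cry1, its partner, rose by 0.66 ± 0.09. In D5W they were 1.44 and 0.78. The labels give no hour of sampling, so time of day cannot be told apart from treatment, and the count of clock genes was 4 without day 0 replicate 1 or 2 and 5 without day 0 replicate 3 or siNeg replicate 3 or 4.

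In the tumour cells' own lineage list 3 of 16 genes rose and 1 fell in siNeg (median 0.12), and 2 rose and 1 fell in D5W (median -0.06). In siNeg 1 rose without any 1 of the day 0 libraries or siNeg replicate 4, and 2 without siNeg replicate 1 or 3. Gpnmb, a melanosome protein, was lost without day 0 replicates 1, 2 or 3 or siNeg replicate 4 (adjusted p 0.0693 to 0.0985) and Pax3, a lineage regulator, without day 0 replicates 1, 2 or 3 or siNeg replicates 1, 3 or 4 (adjusted p 0.0615 to 0.0985). Mitf, the regulator of the lineage, had 539, 522 and 561 CPM at day 0, 1085, 1073 and 1305 CPM in D5W and 928, 871, 924 and 1012 CPM in siNeg. It rose in both, by 0.79 ± 0.11 in siNeg (adjusted p = 0.000471) and 1.09 ± 0.12 in D5W. Its siNeg libraries lay below those of D5W, and 14.3% of all genes did not overlap between these 2 groups. Directly against D5W none of the 16, Mitf included, passed with edgeR, and 6 did at an unadjusted p under 0.05 (14.9% of all genes). DESeq2 called 2 higher and 1 lower there, and limma voom 1 higher and 1 lower. Mlana, a melanosome antigen, fell with -0.37 ± 0.09 in siNeg, a call lost without day 0 replicate 1 (adjusted p 0.0814), and Dct, Tyr and Sox10 stood at 0.05, 0.01 and 0.00. Of 18 cholesterol synthesis genes 2 rose in siNeg, near the 10.5% of all genes, and 6 in D5W, and limma voom called 4 higher and 3 lower in siNeg. The siNeg count was 1 without day 0 replicate 2 or 3 or siNeg replicate 3 or 4, and 4 without siNeg replicate 2. Directly against D5W none of the 18 passed with edgeR or limma voom, DESeq2 called 1 lower, and edgeR held 5 at an unadjusted p under 0.05. Hmgcs1, an early enzyme of the pathway, rose by 0.45 ± 0.12 in siNeg and 0.80 ± 0.13 in D5W. The Hmgcs1 call in siNeg was lost without day 0 replicates 2 or 3 or siNeg replicates 3 or 4 (adjusted p 0.0651 to 0.0864).

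Stromal transcripts were high in 2 of the 3 D5W libraries. Of 22 fibroblast and matrix genes 1 rose and 1 fell in siNeg (median -0.12), and 3 rose in D5W (median 1.15), where DESeq2 called 11 higher and limma voom 1. Fn1, the matrix protein fibronectin, rose from 320.0 ± 28.6 to 682 ± 182 CPM, 1.09 ± 0.17 in siNeg (adjusted p = 0.000781) and 0.68 ± 0.17 in D5W. Sparc, a matrix glycoprotein, stood at -0.40 ± 0.12, a call lost without day 0 replicates 1, 2 or 3 or siNeg replicates 1, 3 or 4 (adjusted p 0.0524 to 0.116). Col3a1, a fibrillar collagen, had 47.6, 35.1 and 55 CPM at day 0, 207, 32.5 and 409 CPM in D5W and 27.5, 51.1, 29.1 and 14.6 CPM in siNeg. D5W replicates 1 and 3 were high and replicate 2 within the range of the other groups, and the direct difference of -2.82 ± 0.82 did not pass (adjusted p = 0.18). Directly against D5W none of the 22 passed with edgeR (median -1.15), 18 passed an unadjusted p under 0.05, and DESeq2 called 4 lower and limma voom none, with 4 at an unadjusted p under 0.05. Of 14 endothelial genes 1 rose in siNeg, Vwf, the clotting glycoprotein of vessels, by 0.80 ± 0.16, and 5 in D5W. Directly against D5W none of the 14 passed with edgeR, DESeq2 or limma voom, and edgeR held 6 at an unadjusted p under 0.05. Of 15 macrophage genes the rise was that of Cd14, a lipopolysaccharide co-receptor, by 1.86 ± 0.51 in siNeg and 2.30 ± 0.54 in D5W, and the siNeg call was lost without day 0 replicates 1, 2 or 3 or siNeg replicate 2 (adjusted p 0.0536 to 0.101). Lcn2, an iron-binding protein of neutrophils and stressed epithelia, fell from 0.7, 1.7 and 0.495 CPM at day 0 to 0.104, 0.134, 0.132 and 0.0558 CPM in siNeg, -3.14 ± 0.48 (adjusted p = 0.000711), and the other 6 tested neutrophil genes did not pass.

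Of the 12 genes with the largest rises, Atn1 and Ptp4a1 share their position with another gene on the same strand, so their log2 fold changes of 3.77 and 3.40 are uncertain. The gene entry for Ptp4a1 is one of 2 with that symbol. Cd274, Il1a, Kdelr3, Parp9, Irf7, Usp18, B2m, Tap2, Sec23a, Rcn3 and P3h2 overlap genes on the opposite strand, and their reads may be mixed for the reason given for Avil.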

How the data were processed

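Per the labels' protocols, RNA was extracted from whole tumours with RNeasy columns and sequenced from TruSeq stranded libraries. Per the submitters' processing notes, the tools were FastQC 0.11.3, STAR, featureCounts and edgeR with GRCm38, while other versions, the annotation release and the strand setting were not given in the sources used here. Deposited by the authors was 1 table of raw counts per gene, with 14 libraries and 37409 genes, of which 3935 had no count.

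From these counts, 17141 genes passed edgeR's filterByExpr by group, and 1 edgeR 4.0.16 robust quasi-likelihood model (R 4.3.3, TMM scaling) was fitted to all 14 libraries, which share 1 estimate of the spread. The siNeg, D5W and day 0 groups were contrasted, and p-values were adjusted by Benjamini-Hochberg over all tested genes, with calls at an adjusted p under 0.05. Printed standard errors are the log2 fold change over the square root of the F statistic. CPM values are TMM-scaled. Genes were matched to GENCODE positions by identifier for 37386 of 37409 genes, and promoters are those of RefSeq on GRCm38.p6, found for 11851 tested genes. The script was tested on simulated counts.

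Alternatives were RLE scaling, library totals, other filters, DESeq2 1.42.0, limma 3.58.1 voom, a replicate block, the 2 groups alone, removal of mitochondrial and ribosomal RNA-like genes, GC and length trends removed, and each library left out. The fit without siPDL1 replicate 1, in which the ribosomal RNA-like gene Gm42418 took 9.708% of counts, was added after seeing the data. The members and gene lists were chosen with earlier results of these data known. Genes were named by these rules: Cd274, the 12 largest rises and falls, the 6 of smallest p, those past the threshold against both day 0 and D5W, the 6 nearest it against D5W in each direction, and up to 4 members of each list. Other list members are named for their role and were chosen after their values were seen. Values of 3 genes are not reported here.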

Additional observations from a re-analysis of the deposited data

Results flagged for a closer look

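Among the 4 siNeg libraries, 13 of 217 groups of values (183 genes and 34 list means) held 1 library whose gap to the nearest of the others was larger, as a share of the range, than Dixon's 95% critical value, and chance gives about 1 in 20. For the genes the values are CPM of the library that stood apart. In replicate 1 these were Atf3 at 158.7 and Mdm2 at 93.0. In replicate 2 they were Arrdc3 at 184.9, Ier3 at 82.4, Nqo1 at 4.52 and Vil1 at 3.64. In replicate 3 they were Usp18 at 9.34, Hspa1b at 55.7 and Krt5 at 0.372. In replicate 4 Bag3 stood apart at 128.3. Replicate 2 also stood apart in the mean log2 CPM of the B and plasma cell list at -0.73, of the intestinal list at 1.33 and of the neutrophil list at 0.22.

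The effects of siNeg and D5W against their shared day 0 libraries differed in the direct contrast for 16 named genes. All 16 calls were kept with RLE scaling, DESeq2 and limma voom. With the 2 groups alone 0 were kept, and 3 with a replicate block. With single libraries left out, 0 were kept without siNeg replicate 2, 4 without siNeg replicate 1 or 4 and 5 without D5W replicate 3. On the log2 scale siNeg minus D5W was -2.54 for Cdsn, -2.42 for Acox2, -2.39 for Avil, -2.14 for Sec16b, -2.0 for Loxl4 and -1.85 for Papss2. It was -1.09 for Rcn3, -1.08 for Kdelr3, -1.02 for Tmem179, -0.98 for Serpinf1, -0.68 for Hmox1, -0.56 for P3h2, -0.47 for Sec24d and -0.42 for Sec23a. It was 0.94 for St3gal1 and 0.53 for Vegfa.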

How the results depend on the processing

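Against day 0 the siNeg count of 3158 became 1774 with library totals, 2038 without a filter, 6890 with limma voom and 5953 with the 2 groups alone, and 1281 to 2719 with 1 siNeg or day 0 library left out, and 3131 (51.2% higher against 57.1%) without siPDL1 replicate 1. Removing mitochondrial genes and those like ribosomal RNA gave 3218, 48.1% of them higher. Of the 137 named genes that passed, 86 did so in every alternative in which they were tested, and removing GC and length trends reversed Clock to -0.01. The direct count of 18 against D5W became 76 without a filter, 29 with a CPM filter, 459 with DESeq2, 310 with limma voom, 38 with GC and length trends removed and 1 with the 2 groups alone, and 0 to 123 with 1 library left out. Higher calls made up 22.2% of the 18, 0 of 22 with library totals, 70.6% of 17 without D5W replicate 3 and 7.69% of 13 without siPDL1 replicate 1. The D5W count of 3691 became 2361 with library totals, 83.9% of them higher against 55.0%, 2320 without a filter, 2427 with GC and length trends removed and 2237 with the 2 groups alone, and 1350 to 4031 with 1 library left out. Removing those trends turned D5W against day 0 to 0.05 for Apoe and -0.09 for Clock. The labels state no pairing for the replicate numbers, so the main fit used none. Same-numbered siNeg and day 0 libraries correlated at 0.108, 0.147 and 0.00524 in their deviations from the group means. The values were 0.231, -0.322 and 0.248 for siNeg and D5W and 0.214, -0.121 and -0.0175 for D5W and day 0. So few values cannot exclude a pairing. The replicate block gave 2611 genes for siNeg against day 0, 5 for siNeg against D5W and 3695 for D5W against day 0. The cause of these shifts was not tested.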
